A study of Homo sapiens with 6 samples.

Results

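EZH2 can be lost as a protein or blocked as an enzyme, and the expression response to its depletion was compared gene by gene with the response to its catalytic inhibitor GSK126. The material was polyadenylated RNA from C4-2, a prostate cancer cell line established from LNCaP, at passages 10 to 15. Vehicle and GSK126 were 1 pair of conditions. The other pair was lentivirus carrying a scramble shRNA and lentivirus carrying an EZH2 shRNA, of which the labels list 2 hairpins. Each condition has 1 column of FPKM, fragments scaled to transcript length and library size, and the knockdown is a single column whose header names no hairpin, so it may be a mean, a pool or 1 hairpin. Dose, length of exposure and time after infection were not given in the sources used here. For each gene the knockdown response was log2 of (FPKM + 1) over scramble shRNA, the GSK126 response was the same over vehicle, and the difference of responses was the former minus the latter. Genes that reached 1 FPKM in any of these 4 columns and stood above 0 in all of them were compared, 12679 of the 28503 lines of the table. With 1 value per condition there is no replicate check and no test, so every value below describes these libraries only. The pairs also differ in delivery, by lentivirus or as a compound, which cannot be told apart from the kind of EZH2 loss. The pseudocount of 1 FPKM understates the fold change of genes with low values.

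EZH2 is the methyltransferase of Polycomb repressive complex 2 (PRC2), which trimethylates lysine 27 of histone H3 at silenced genes together with its core partners EED and SUZ12. A competitive inhibitor such as GSK126 blocks the methylation and leaves the protein in the cell, whereas an shRNA removes the protein with any role it has outside methylation. In prostate cancer cells, EZH2 has been described both as a silencer and as an activator of androgen-induced and cell cycle genes.

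EZH2 itself stood at 24.6 FPKM with scramble shRNA, 3.35 with the knockdown, 26.5 with vehicle and 17.5 with GSK126. Its level was by far the lowest in the knockdown column and somewhat lower with GSK126 than with vehicle, and the log2 ratios were -2.55 for the knockdown and -0.58 for GSK126. SUZ12 was lower with the knockdown (ratio -1.04, GSK126 -0.23), EED was at -0.67 and -0.46, and EZH1, the paralogous methyltransferase, was at 0.89 and 0.19. The 2 control columns were not alike. Scramble shRNA was 2-fold or more above vehicle for 16 genes (0.126%) and below it for 86 (0.678%), so each class below was recounted with the other control column. All 12 luminal epithelial markers were at 1 FPKM or more in 3 of the 4 columns and 11 in the knockdown column. Of 20 liver markers, 15 were at 1 FPKM or more with GSK126 (sum 214 FPKM), against 7 with vehicle (24.5), 1 with scramble shRNA (2.48) and 1 with the knockdown (3.41). None of the 20 was at 0 with GSK126, while APOB, FGB and HP were among those at 0 with scramble shRNA. Blood cell markers summed to 10.1 FPKM with GSK126, 3.83 with vehicle, 2.61 with scramble shRNA and 2.07 with the knockdown. Fibroblast markers summed to between 1.53 and 2.94 over the columns.

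The knockdown moved more genes than the inhibitor did. Of the 12679 genes, 240 (1.89%) were 2-fold or more higher and 644 (5.08%) lower with the knockdown, against 110 (0.868%) and 104 (0.82%) with GSK126. In either direction these were 884 (6.97%) and 214 (1.69%). The difference of responses reached 2-fold upwards, that is, higher with the knockdown relative to GSK126, in 233 genes (1.84%) and downwards in 597 (4.71%), 830 in all (6.55%). Upward differences were thus 28.1% of the total, a split that depended on scaling. It was 12.8% after each column was rescaled to the same sum, which moved the median difference of all genes from 0.04 to -0.17, and 12.5% when a single control served both treatments. Across genes, which are not independent, the responses had Pearson's r of 0.40 and Spearman's rho of 0.31. The spread of the ratios over genes (SD) was 0.61 for the knockdown, 0.39 for GSK126 and 0.31 between the controls. Most genes that were low with the knockdown leaned the same way with GSK126: of the 644, 560 (87%) had a GSK126 ratio below 0, with a median of -0.58, beside 54.8% of all genes. Of the 240 higher genes, 185 (77.1%) had a GSK126 ratio above 0, with a median of 0.29, beside 45.2% of all genes.

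Genes were then put in classes by both ratios, so class membership was set by the values themselves. Knockdown only means a 2-fold knockdown ratio with a GSK126 ratio under 0.5 in size on the log2 scale. That class held 149 higher (1.18% of all) and 269 lower genes (2.12%). GSK126 only is the reverse and held 47 higher (0.371%) and 25 lower (0.197%). Opposite means both ratios at 1.5-fold or more with opposite signs, which 23 genes met with the knockdown higher (0.181%) and 32 with the knockdown lower (0.252%). Both ratios were 2-fold or more in the same direction in 30 higher (0.237%) and 67 lower genes (0.528%), and 77 higher (0.607%) and 304 lower genes (2.4%) lay between the classes. Rescaling to equal sums turned the balance of same-direction genes to 51 higher and 23 lower, with 20 of the 67 kept, and made the opposite class 10 and 98. The limits cut a continuous cloud. RPS6KA4, at -0.495 with GSK126, counted as knockdown only, and CHRNA5, at -0.500, did not. STK38L entered that class with a knockdown ratio of 1.000, and SLC27A2 missed it at -0.999.

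**Figure D1:**
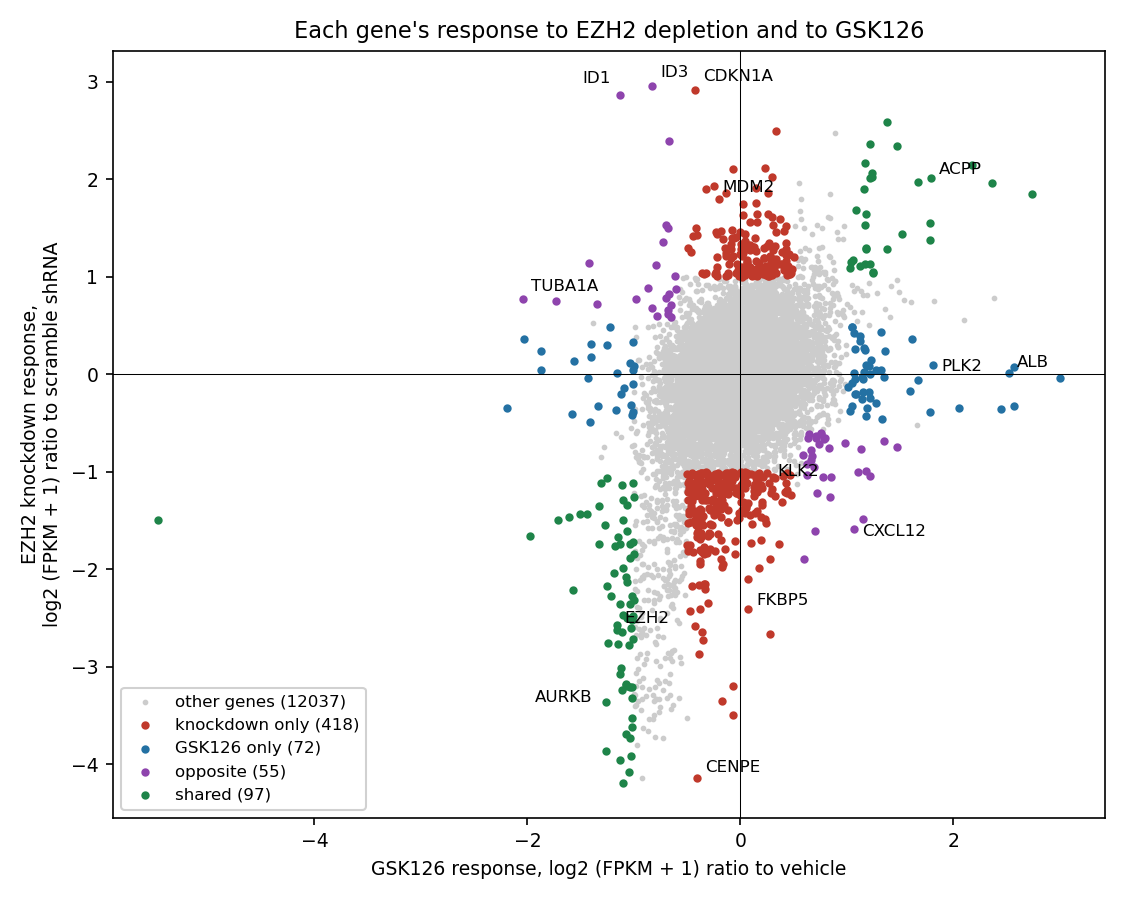
Each point is 1 of 12679 genes, with its GSK126 response (log2 (FPKM + 1) ratio to vehicle) on the x axis and its knockdown response (ratio to scramble shRNA) on the y axis. Colours mark the classes: 418 genes (3.3%) moved with the knockdown only and 72 (0.568%) with GSK126 only. Another 55 (0.434%) moved in opposite directions and 97 (0.765%) in both the same way, and 381 (3%) with a 2-fold ratio lie between the classes. Apart from C1orf112, at a GSK126 ratio of -5.47 with a high vehicle value, the cloud extends furthest towards low knockdown ratios.

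Proliferation genes were far lower with the EZH2 knockdown than with GSK126, each beside its own control. All 32 genes of a G2 and M phase list (mitotic kinases, cyclins, kinesins and kinetochore proteins) were 2-fold or more lower with the knockdown, with a median log2 ratio of -3.24. With GSK126 4 of the 32 reached 2-fold, and the median was -0.80. The difference of responses was below -1 in all 32, with a median of -2.41, beside 0.04 over all genes. Of 37 S phase and replication genes, 35 were 2-fold or more lower with the knockdown and 10 with GSK126 (medians -2.35 and -0.90), and the difference reached 2-fold in 29. Homologous recombination and Fanconi genes had medians of -2.30 and -0.64, with 13 of 16 differences at 2-fold or more. Of all genes, 5.08% were 2-fold or more lower with the knockdown and 0.82% with GSK126, and 4.71% had such a difference downwards. These are bulk samples, in which fewer cycling cells and less RNA per cell cannot be told apart.

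CENPE, a kinetochore motor protein, stood at 32.5 FPKM with scramble shRNA, 0.893 with the knockdown, 35.8 with vehicle and 26.7 with GSK126. Its knockdown value was far below the other 3 columns, which lay close together. The ratios were -4.14 for the knockdown and -0.41 for GSK126, and the difference of -3.73 was the lowest of the G2 and M phase list. MKI67, which encodes the proliferation antigen Ki-67, was at 17.7 FPKM with scramble shRNA, 1.03 with the knockdown, 11.7 with vehicle and 11.03 with GSK126. Its level with GSK126 was near that with vehicle (-0.07), while the knockdown ratio was -3.2. Over scramble shRNA the GSK126 ratio of MKI67 was -0.64, so it left the knockdown-only class with the controls exchanged. FAM111B, a trypsin-like protease, was at 30.2 FPKM with scramble shRNA, 1.78 with the knockdown, 23.2 with vehicle and 22.2 with GSK126, again low in the knockdown column only. CDCA8, the borealin subunit of the chromosomal passenger complex, had ratios of -2.87 for the knockdown and -0.39 for GSK126. CKAP2L, a spindle protein, had ratios of -2.72 for the knockdown and -0.35 for GSK126. The knockdown-only class held 3 of the 32 G2 and M phase genes and 1 of the 37 S phase genes, beside 2.12% of all genes. Others of the same lists were lower with both treatments. AURKB, the kinase of the chromosomal passenger complex, was at 37.1 FPKM with scramble shRNA, 2.71 with the knockdown, 60.05 with vehicle and 24.5 with GSK126, and here both ratios (-3.36 and -1.26) passed 2-fold. CDK1, the mitotic kinase, did so too (-3.2 and -1.06), and PLK1, a polo-like kinase, fell just short of 2-fold with GSK126 (-3.28 and -1.0). Against scramble shRNA the GSK126 ratios of CDK1 and PLK1 shrank to -0.46 and 0.00. Over the whole G2 and M phase list the median of GSK126 over scramble shRNA was -0.29, and scramble shRNA itself was -0.51 from vehicle.

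Of 18 E2F, DREAM and FOXM1 regulators of the cell cycle, 8 were 2-fold or more lower with the knockdown and 1 with GSK126. The shares of all genes were 5.08% and 0.82%. MYBL2 (B-Myb) was at 103 FPKM with scramble shRNA, 4.903 with the knockdown, 142 with vehicle and 74.4 with GSK126. FOXM1 had ratios of -3.3 for the knockdown and -0.89 for GSK126, E2F1 of -3.19 for the knockdown and -1.07 for GSK126 and E2F8 of -2.38 for the knockdown and -0.65 for GSK126. Others of the list stood at a knockdown ratio near 0 or above it, such as E2F4 (-0.07), RB1 (-0.05), E2F5 (0.61) and LIN37 (0.67), chosen after their values were seen. Of the S phase genes, ASF1B, a histone chaperone, was at 66.5 FPKM with scramble shRNA, 3.01 with the knockdown, 63.9 with vehicle and 30.4 with GSK126. RRM2, the small subunit of ribonucleotide reductase, had ratios of -3.95 for the knockdown and -1.13 for GSK126, CDC6, a licensing factor, of -3.63 for the knockdown and -0.91 for GSK126, and DTL, a substrate receptor of a ubiquitin ligase, of -3.32 for the knockdown and -0.58 for GSK126. Every one of the 37 S phase and the 32 G2 and M phase genes had a lower knockdown ratio than GSK126 ratio. Of all 12679 genes, 5875 did.

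Promoters of a few of these genes, all with motif letters, are shown as examples. Mitotic genes are known to carry a cell cycle homology region (CHR) and CCAAT boxes near their starts, and S phase genes E2F sites. Each run is the 130 bases before the annotated start in RefSeq's GRCh38.p14, 5′ to 3′ on the gene's strand. Capitals mark letters of the motifs, each searched on both strands. The CHR was taken as TTTGAA and, in a less common form, as TTCGAA. The CCAAT box was searched as those letters, so that its other strand reads ATTGG. For E2F the letters were TTTCCCGC, or TTTGGCGC as another form, or TTTCGCGC as the last form. CHR and CCAAT letters share bases where they adjoin. The same runs of CENPE, MYBL2 and AURKB, not printed, hold none of these letters. CDCA8 lies at chr1:37692386-37692515, plus strand. MKI67 is at chr10:128126424-128126553, minus strand. CKAP2L is at chr2:112764610-112764739, minus strand. CCNB2, which encodes cyclin B2, is at chr15:59105016-59105145, plus strand. E2F1 is at chr20:33686386-33686515, minus strand.
CDCA8: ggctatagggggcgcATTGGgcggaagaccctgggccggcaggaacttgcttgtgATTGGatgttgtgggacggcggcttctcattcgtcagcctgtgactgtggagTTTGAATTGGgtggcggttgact
MKI67: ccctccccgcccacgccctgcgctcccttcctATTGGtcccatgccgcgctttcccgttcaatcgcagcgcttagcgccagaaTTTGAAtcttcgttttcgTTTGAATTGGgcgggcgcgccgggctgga
CKAP2L: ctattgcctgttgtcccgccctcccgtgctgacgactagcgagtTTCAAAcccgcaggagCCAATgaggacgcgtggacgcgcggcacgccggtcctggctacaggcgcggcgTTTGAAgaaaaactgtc
CCNB2: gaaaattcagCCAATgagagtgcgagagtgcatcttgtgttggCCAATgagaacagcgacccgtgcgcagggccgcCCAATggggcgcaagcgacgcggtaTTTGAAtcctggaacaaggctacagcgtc
E2F1: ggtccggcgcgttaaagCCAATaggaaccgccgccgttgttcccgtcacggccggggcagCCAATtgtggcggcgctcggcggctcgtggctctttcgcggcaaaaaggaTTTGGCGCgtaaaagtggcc

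Windows of 250 bases before to 50 after the start were searched for 27 of the 32 G2 and M phase genes, 32 of the 37 S phase genes and 217 of the 269 genes lower with the knockdown only. CHR letters were in 66.7% of the G2 and M phase windows, 9.38% of the S phase windows and 17.1% of the knockdown-only windows, beside 16.6% of all 27305 windows of that length and 10.7% of the 9641 windows of genes compared. CCAAT was in 81.5%, 59.4% and 35.5%, beside 35.7% of all windows and 37.5% of those of genes compared. E2F letters were in 11.1%, 50% and 11.1%, beside 2.79% and 4.79%. CCNB2, with CHR and CCAAT letters, was at 58.7 FPKM with scramble shRNA, 4.71 with the knockdown, 95.5 with vehicle and 47.97 with GSK126, and E2F1, with E2F letters, at 40.2 FPKM with scramble shRNA, 3.51 with the knockdown, 43.5 with vehicle and 20.2 with GSK126. A match is a description of letters and not of a bound site. Of the 30 genes higher with both treatments 24 had a window, and 20.8% of these held CHR, 33.3% CCAAT and 12.5% E2F letters. For the remaining classes fewer than 80% of the genes had a window, and no share is given.

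Genes known as p53 targets mostly had a higher knockdown ratio than GSK126 ratio (22 of 24, beside 6804 of all 12679 genes). Of the 24, 13 were 2-fold or more higher with the knockdown (median ratio 1.07) and 2 with GSK126 (median -0.18), beside 1.89% and 0.868% of all genes. The median was 0.67 for the knockdown over vehicle and 0.19 for GSK126 over scramble shRNA, with scramble shRNA at -0.45 from vehicle. The difference of responses was 2-fold or more upwards in 12 (1.84% over all genes) and downwards in 1, with a median of 0.91, or 0.68 after rescaling to equal sums and 0.81 with a single control. CDKN1A, the CDK inhibitor p21, stood at 48.05 FPKM with scramble shRNA, 369.8 with the knockdown, 99.4 with vehicle and 73.6 with GSK126. The knockdown value was the highest of the 4, and the controls themselves differed, with scramble shRNA below vehicle. Its ratios were 2.92 for the knockdown and -0.43 for GSK126, and the knockdown over vehicle was 1.88. MDM2, the ubiquitin ligase of p53, was at 18.7 FPKM with scramble shRNA, 74.4 with the knockdown, 31.2 with vehicle and 26.1 with GSK126. BTG2, an antiproliferative factor, was at 14.1 FPKM with scramble shRNA, 64.7 with the knockdown, 22.6 with vehicle and 26.7 with GSK126. Both were again highest with the knockdown against either control (1.23 and 1.47 over vehicle). SPATA18, a regulator of mitochondrial quality, had ratios of 1.86 for the knockdown and -0.13 for GSK126. FAS, the death receptor, had 1.42 for the knockdown and -0.44 for GSK126, and 0.84 for the knockdown over vehicle. BBC3, the BH3-only protein PUMA, had 1.41 for the knockdown and -0.04 for GSK126. SESN2, a stress sensor, had 1.46 for the knockdown and -0.23 for GSK126.

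Not every p53 target behaved in this way. PLK2, a polo-like kinase, was at 20.02 FPKM with scramble shRNA, 21.5 with the knockdown, 21.3 with vehicle and 76.9 with GSK126. It was high with GSK126 only, by 1.81 over vehicle and 1.89 over scramble shRNA, and was the 1 target with a 2-fold difference downwards. SESN1 was higher with both (2.17 and 1.17). RRM2B (-0.43 and -0.07) and TP53I3 (-0.01 and -0.03) moved with neither. Of the CDK inhibitors, CDKN2B was low throughout, at 0.214 FPKM with scramble shRNA, 1.59 with the knockdown, 0.282 with vehicle and 0.463 with GSK126, and CDKN2C was lower with the knockdown (-1.92) and less so with GSK126 (-0.68).

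Low-level genes were among the largest ratios of the knockdown-only class. SYP, synaptophysin of synaptic vesicles, was at 0.5098 FPKM with scramble shRNA, 4.63 with the knockdown, 0.864 with vehicle and 0.489 with GSK126. SCG3, a secretogranin, was at 0.0335 FPKM with scramble shRNA, 3.45 with the knockdown, 0.0652 with vehicle and 0.0124 with GSK126. In both, only the knockdown column passed 1 FPKM, so they entered the comparison through the column in which they are high. Of the 15 neuroendocrine genes listed, 4 met the level and the above-0 conditions, so no direction is given for the list. ENO2, also among the 4, was lower with the knockdown (-1.02). SYT4, the last of them, was at 12.03 FPKM with scramble shRNA, 21.9 with the knockdown, 15.5 with vehicle and 35.5 with GSK126. Its ratios were 0.81 for the knockdown and 1.15 for GSK126, with a difference of -0.33. TNFSF15, a cytokine, was at 0.442 FPKM with scramble shRNA, 7.12 with the knockdown, 0.866 with vehicle and 1.36 with GSK126. CLU, the secreted chaperone clusterin, was at 2.79 FPKM with scramble shRNA, 12.2 with the knockdown, 6.78 with vehicle and 5.76 with GSK126, but over vehicle its knockdown ratio was only 0.76. NUDT19 (1.5 over scramble shRNA) likewise fell to 0.28 over vehicle.

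Of the 149 genes higher with the knockdown only, 59 kept both conditions with the other control column, 39.6% of them. Of the 269 lower genes, 179 (66.5%) did. Scramble shRNA was 2-fold or more from vehicle in 4.03% of the former and 0.743% of the latter, beside 0.804% of all genes.

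Androgen-induced genes mostly had a lower knockdown ratio than GSK126 ratio (25 of 28, beside 5875 of all 12679 genes). Of the 28, 7 were 2-fold or more lower and 2 higher with the knockdown (median -0.58), beside 5.08% and 1.89% of all genes. With GSK126 none were lower and 3 higher (median 0.25), beside 0.82% and 0.868%. With the controls exchanged the medians were -0.25 for the knockdown over vehicle and 0.09 for GSK126 over scramble shRNA. The difference of responses was 2-fold or more downwards in 12 of the 28 and upwards in 0, beside 4.71% and 1.84% of all genes, and its median was -0.95. That median was -1.21 after rescaling and -0.60 with a single control. FKBP5, a steroid receptor cochaperone, stood at 91.5 FPKM with scramble shRNA, 16.4 with the knockdown, 64.1 with vehicle and 67.2 with GSK126. It was low in the knockdown column only, with ratios of -2.41 for the knockdown and 0.07 for GSK126. KLK2, a prostate kallikrein, was at 473 FPKM with scramble shRNA, 218 with the knockdown, 477 with vehicle and 574 with GSK126. KLK3, prostate-specific antigen, was at 2796 FPKM with scramble shRNA, 1635 with the knockdown, 2675 with vehicle and 3112 with GSK126. Both kallikreins were lowest with the knockdown and highest with GSK126. CAMKK2, a calcium-dependent kinase, was at 49.4 FPKM with scramble shRNA, 19.3 with the knockdown, 45.2 with vehicle and 47.7 with GSK126. TMPRSS2, a membrane serine protease, had ratios of -0.48 for the knockdown and 0.7 for GSK126, but its knockdown value was level with vehicle (-0.06).

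The list of cofactors of androgen signalling (FOXA1, HOXB13, coactivators and corepressors) had 1 of 14 differences past 2-fold, beside 6.55% of all genes. That was NCOA2, a coactivator, at -1.36. With the control columns exchanged its ratios were 0.25 for the knockdown and -0.09 for GSK126. ACPP, prostatic acid phosphatase, went against the androgen-induced list and was higher with both treatments, at 4.401 FPKM with scramble shRNA, 20.7 with the knockdown, 4.09 with vehicle and 16.6 with GSK126. TRPM8, a cold-activated channel, was higher with the knockdown (1.22), and 0.43 with GSK126.

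**Figure D2:**
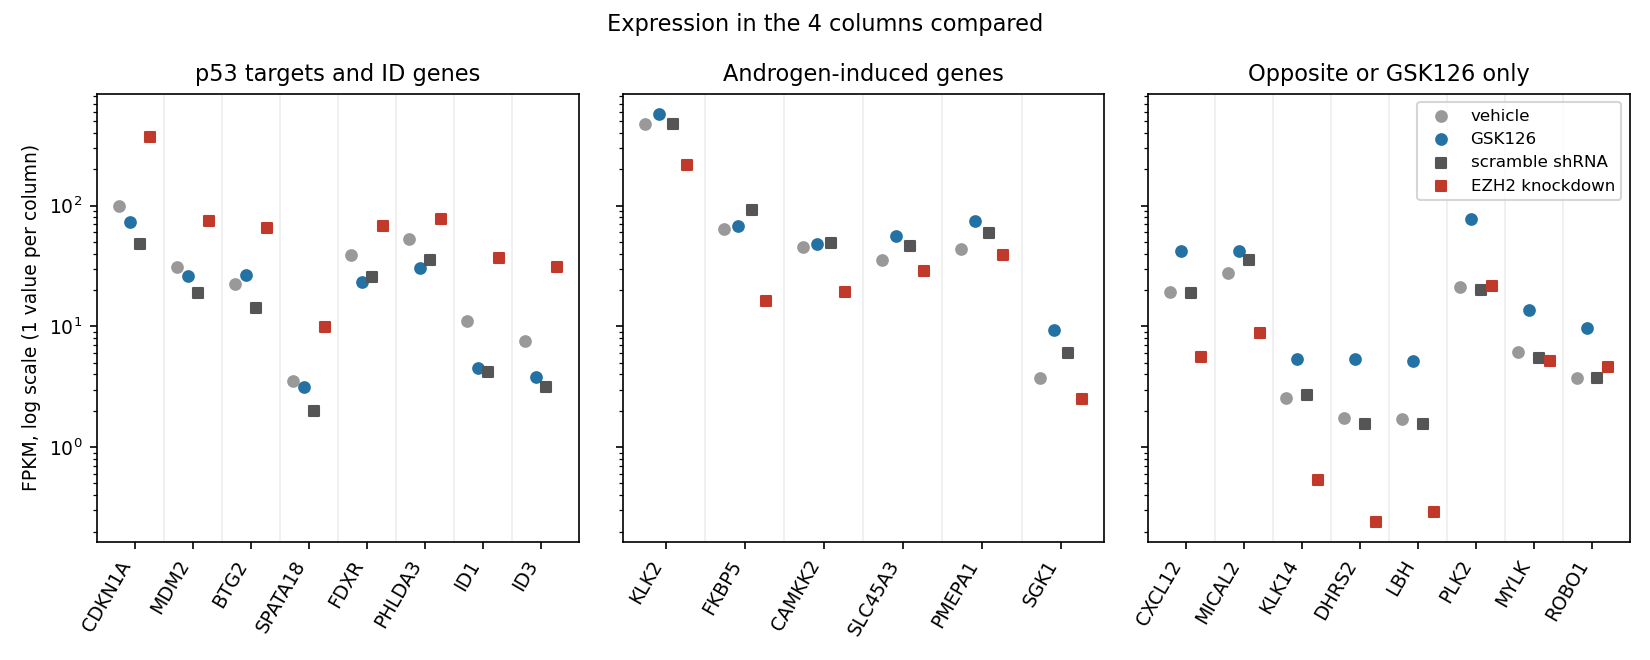
FPKM on a log axis in vehicle, GSK126, scramble shRNA and the EZH2 knockdown for p53 targets and ID genes, androgen-induced genes, and genes that were opposite or moved with GSK126 only; each point is 1 column, with no error bar since there is 1 value per condition. In the left panel the knockdown squares are on top, in the middle panel they are lowest, and in the right panel GSK126 is highest for all 8 genes. The genes shown are a selection. The androgen-induced ACPP and TRPM8, higher with the knockdown, and the p53 targets RRM2B and TP53I3, which moved with neither, are left out. The p53 target PLK2, high with GSK126 only, is in the right panel. The left and middle panels hold genes classed as knockdown only or opposite, and the right panel genes classed by a high GSK126 ratio. The patterns of the panels follow from that choice.

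Of 18 endoplasmic reticulum chaperones and unfolded protein response genes, 3 were 2-fold or more lower with the knockdown and none with GSK126, beside 5.08% and 0.82% of all genes. Of 14 fatty acid genes the counts were 3 and 0. DNAJC3, a cochaperone and kinase inhibitor, was at 19.2 FPKM with scramble shRNA, 5.04 with the knockdown, 19.1 with vehicle and 24.7 with GSK126. CANX, the lectin chaperone calnexin, was at 169.6 FPKM with scramble shRNA, 60.1 with the knockdown, 142 with vehicle and 166 with GSK126. Both were low in the knockdown column only. HERPUD1, of the degradation pathway, had ratios of -0.89 for the knockdown and 0.32 for GSK126. FADS2, a fatty acid desaturase, was at 562 FPKM with scramble shRNA, 159 with the knockdown, 539.5 with vehicle and 421 with GSK126. ELOVL6, an elongase, had ratios of -1.39 for the knockdown and -0.37 for GSK126, and FADS1 of -1.58 for the knockdown and -0.51 for GSK126. PGC, progastricsin, was at 13.9 FPKM with scramble shRNA, 1.35 with the knockdown, 18.3 with vehicle and 22.5 with GSK126, the lowest level again being with the knockdown. OAS3, an interferon-induced nucleic acid sensor, was at 4.75 FPKM with scramble shRNA, 0.604 with the knockdown, 4.08 with vehicle and 3.91 with GSK126. TAP2, a peptide transporter of antigen presentation, had ratios of -1.4 for the knockdown and -0.43 for GSK126, whereas its partner TAP1 had 0.89 for the knockdown and -0.16 for GSK126. RPS17L was at 1394 FPKM with scramble shRNA, 136 with the knockdown, 244 with vehicle and 216 with GSK126, so its low ratio (-3.35) came with a high scramble value, and reads of this near copy of a ribosomal protein gene may be split between copies.

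GSK126 alone moved few genes. The 8 largest of the 47 higher genes included ALB, APOA1, AHSG and SERPINA1, plasma proteins made by the liver. ALB was at 0.119 FPKM with scramble shRNA, 0.124 with the knockdown, 4.18 with vehicle and 28.7 with GSK126. APOA1 was at 1.18 FPKM with scramble shRNA, 0.741 with the knockdown, 4.15 with vehicle and 29.5 with GSK126. Both were above vehicle with GSK126, and vehicle was above both lentiviral columns. APOE, an apolipoprotein made by the liver and other tissues, was also among the 8, at 0.847 FPKM with scramble shRNA, 0.4402 with the knockdown, 1.15 with vehicle and 10.7 with GSK126. FGA was the fifth liver marker in the class, which held 42 genes without these 5. AGT (1.59), SERPINA3 (1.15), ASGR1 (1.08) and C3 (1.07) are also liver products and were among the 42, named after their values were seen. The part of the liver markers in the class was not tested. Outside these, BMPR1B, a BMP receptor reported as silenced by EZH2, was at 4.08 FPKM with scramble shRNA, 4.23 with the knockdown, 2.63 with vehicle and 8.05 with GSK126. Its GSK126 ratio over scramble shRNA was 0.83, under 2-fold. TET1, a DNA demethylase, was at 0.534 FPKM with scramble shRNA, 0.172 with the knockdown, 0.377 with vehicle and 3.72 with GSK126. Only the GSK126 column of TET1 passed 1 FPKM, so it entered the comparison through the column in which it is high. The same holds for AHSG. COL12A1, a collagen, was at 28.4 FPKM with scramble shRNA, 23.1 with the knockdown, 12.9 with vehicle and 32.6 with GSK126, and since scramble shRNA was close to GSK126, the ratio to scramble shRNA was 0.19. MYLK, myosin light chain kinase (1.05 over vehicle, 1.17 over scramble shRNA), and ROBO1, a guidance receptor (1.17 and 1.17), kept their ratios with either control.

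The 25 genes lower with GSK126 only depended on the vehicle column in most cases. ALYREF, an RNA export adaptor, was at 166 FPKM with scramble shRNA, 126 with the knockdown, 236 with vehicle and 117 with GSK126. TNFRSF12A, a TNF receptor, was at 15.3 FPKM with scramble shRNA, 19.5 with the knockdown, 18.7 with vehicle and 8.79 with GSK126. In both, vehicle was above scramble shRNA. Over scramble shRNA the GSK126 ratios were -0.5 and -0.74. RPL36A-HNRNPH2, at -2.03, is a readthrough locus whose reads overlap those of its component genes. Of the 25 genes, 10 were 2-fold apart between the controls (40%, beside 0.804% of all genes), and 2 kept the class with the controls exchanged. Of the 47 higher genes 20 did.

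In the opposite class, in the direction of higher with the knockdown and lower with GSK126, the largest differences were those of ID1 and ID3, inhibitors of helix-loop-helix factors and targets of BMP signalling. ID1 stood at 4.22 FPKM with scramble shRNA, 36.9 with the knockdown, 10.98 with vehicle and 4.49 with GSK126. ID3 stood at 3.15 FPKM with scramble shRNA, 31.2 with the knockdown, 7.502 with vehicle and 3.78 with GSK126. The knockdown value was the highest of the 4 in each, and vehicle lay above GSK126 and scramble shRNA, which were alike. The ratios for ID1 were 2.86 for the knockdown and -1.13 for GSK126, and for ID3 2.96 for the knockdown and -0.83 for GSK126. Over vehicle the knockdown ratios were 1.66 and 1.92, and GSK126 over scramble shRNA was 0.07 and 0.21. Higher with the knockdown held against either control, therefore, and lower with GSK126 held against vehicle alone. ID2 was higher with both, at 1.52 and 0.51. FDXR, a mitochondrial reductase, and PHLDA3, an AKT inhibitor, are p53 targets in the same class. FDXR was at 25.8 FPKM with scramble shRNA, 67.8 with the knockdown, 39.1 with vehicle and 23.1 with GSK126. PHLDA3 was at 35.4 FPKM with scramble shRNA, 78.1 with the knockdown, 53.03 with vehicle and 30.3 with GSK126. Their GSK126 ratios over scramble shRNA were -0.15 and -0.22.

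TUBA1A, an alpha-tubulin with near-identical paralogs, was at 0.475 FPKM with scramble shRNA, 1.52 with the knockdown, 9.65 with vehicle and 1.598 with GSK126. Vehicle alone was high, and with a single control its difference of responses changed from 2.81 to -0.05. CBLN2, a secreted synaptic protein, had ratios of 1.5 for the knockdown and -0.68 for GSK126, and 0.4 for GSK126 over scramble shRNA. Scramble shRNA was 2-fold from vehicle in 12 of the 23 genes (52.2%, beside 0.804% of all genes). GPR126, an adhesion receptor, was the only 1 of the 23 to stay in the class with the controls exchanged, at 0.63 and -0.69, and is named after its values were seen.

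In the other direction CXCL12, the chemokine that binds CXCR4, stood at 18.8 FPKM with scramble shRNA, 5.57 with the knockdown, 19.3 with vehicle and 41.7 with GSK126. The controls were level, GSK126 was above and the knockdown below them, and the ratios of -1.59 for the knockdown and 1.07 for GSK126 became -1.63 and 1.11 with the controls exchanged. KLK14, a kallikrein, was at 2.68 FPKM with scramble shRNA, 0.539 with the knockdown, 2.57 with vehicle and 5.403 with GSK126. DHRS2, a short-chain dehydrogenase, was at 1.55 FPKM with scramble shRNA, 0.2402 with the knockdown, 1.74 with vehicle and 5.36 with GSK126. LBH, a transcription cofactor, was at 1.56 FPKM with scramble shRNA, 0.291 with the knockdown, 1.72 with vehicle and 5.16 with GSK126. All 3 showed level controls, with GSK126 highest and the knockdown under 1 FPKM. MICAL2, an actin-oxidizing enzyme, was at 35.4 FPKM with scramble shRNA, 8.84 with the knockdown, 27.5 with vehicle and 42.2 with GSK126, and PTRF, a caveola coat protein, at 5.18 FPKM with scramble shRNA, 1.03 with the knockdown, 3.89 with vehicle and 6.95 with GSK126. For these the knockdown ratio held over vehicle (-1.53 and -1.27), and GSK126 over scramble shRNA shrank to 0.25 and 0.36. SGK1, an androgen- and glucocorticoid-induced kinase, was at 6.02 FPKM with scramble shRNA, 2.51 with the knockdown, 3.77 with vehicle and 9.33 with GSK126. PIP, prolactin-induced protein, was at 4.31 FPKM with scramble shRNA, 0.896 with the knockdown, 2.02 with vehicle and 5.72 with GSK126. In both, vehicle and scramble shRNA lay between the treatments but apart from each other. PMEPA1 (-0.61 and 0.76) and SLC45A3 (-0.65 and 0.64), androgen-induced genes, also fell in the class and left it with the controls exchanged. Of the 32 genes 11 stayed, 34.4%, and at 5 FPKM or more these were CXCL12, DHRS2, LBH, KLK14, FAM129A, SFTPA2 and TGM2.

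**Figure D3:**
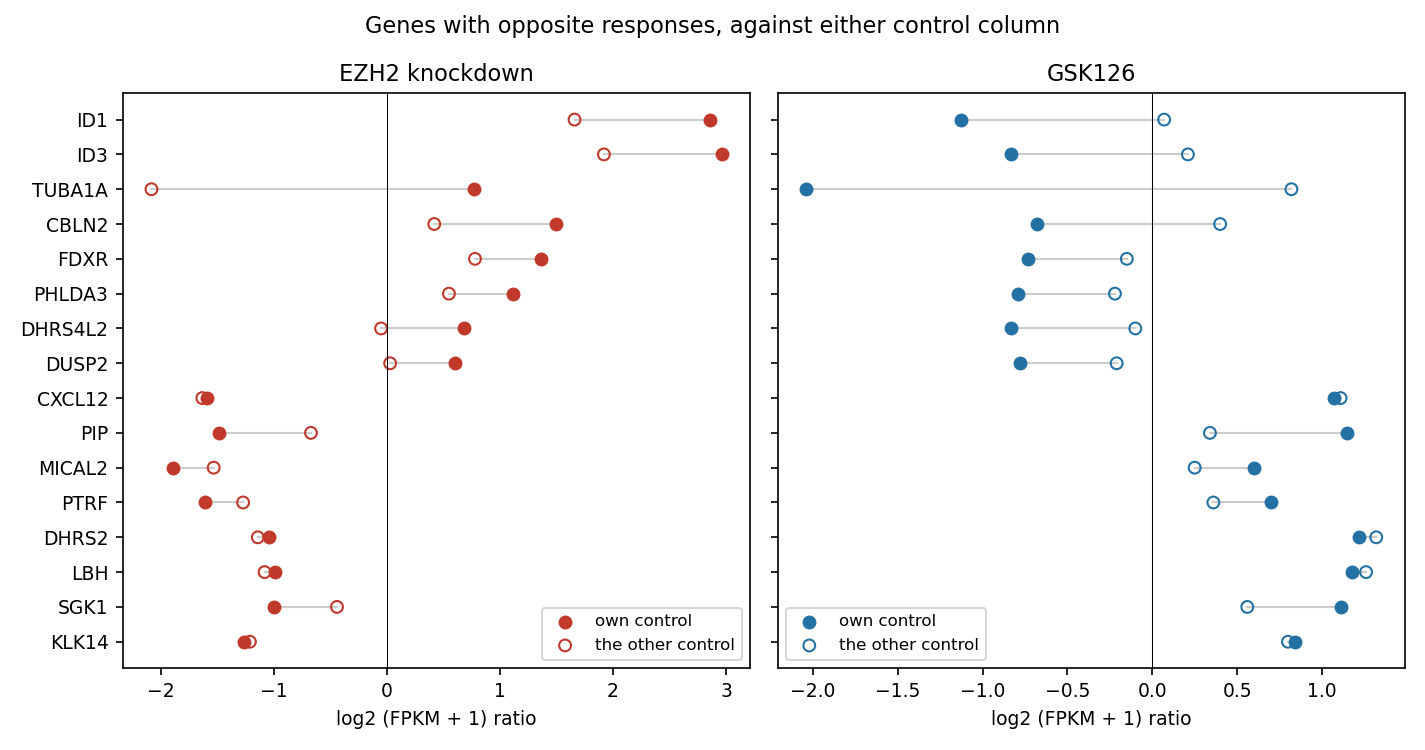
Log2 (FPKM + 1) ratios of the 16 named genes with opposite responses, for the knockdown (left) and GSK126 (right); filled points use the treatment's own control and open points the other control column. Filled and open points almost coincide for CXCL12, DHRS2, LBH and KLK14, while the GSK126 ratios of ID1, ID3, TUBA1A and CBLN2 cross 0.

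Genes that moved in both the same way included a reported EZH2 target. WNT5A, a Wnt ligand reported as EZH2-repressed, was at 3.15 FPKM with scramble shRNA, 10.3 with the knockdown, 3.33 with vehicle and 11.4 with GSK126. Its ratios of 1.44 for the knockdown and 1.52 for GSK126 were nearly equal. NAALADL2 (1.85 and 2.74), GPNMB (1.97 and 1.67) and TMEFF2 (1.55 and 1.78) were likewise higher with both. Over vehicle the knockdown ratios of GPNMB and TMEFF2 were 0.91 and 0.67, under 2-fold, and 20 of the 30 genes stayed with the controls exchanged. Of 19 reported EZH2-repressed genes, 9 met the conditions and were compared. Of the 9, 3 were 2-fold or more higher with the knockdown and 2 with GSK126, beside 1.89% and 0.868% of all genes. CDKN2B, 1 of the 3, passed 1 FPKM in the knockdown column only (1.59), so it entered through the column in which it is high. IGFBP3, an IGF-binding protein, was at 1.37 FPKM with scramble shRNA, 5.96 with the knockdown, 2.58 with vehicle and 2.803 with GSK126, and so differed from BMPR1B, which was high with GSK126. Both fell under 2-fold with the other control. IGFBP3 was at 0.96 for the knockdown over vehicle, and BMPR1B at 0.83 for GSK126 over scramble shRNA. CDH1, E-cadherin, was at 75.4 FPKM with scramble shRNA, 40.96 with the knockdown, 54.6 with vehicle and 63.1 with GSK126, with a difference of -1.07 that was -0.61 with a single control. Of 18 HOX genes compared, 2 were 2-fold or more higher with the knockdown and none with GSK126, beside the same shares. HOXC13 was at 5.47 FPKM with scramble shRNA, 18.7 with the knockdown, 7.35 with vehicle and 9.28 with GSK126. HOXC6 had ratios of 1.07 for the knockdown and 0.17 for GSK126, but 0.69 for the knockdown over vehicle, under 2-fold. Of 12 PRC2 genes, 4 were 2-fold or more lower with the knockdown (EZH2, SUZ12, PHF19 and C17orf96), beside 5.08% of all genes, and JARID2 was higher (1.1, GSK126 0.75). Among 18 PRC1 genes, RYBP was at -1.09 for the difference, CBX6 at 0.9, and the list medians were -0.15 and -0.04. UHRF1, a maintenance methylation factor, was lower with both (-3.24 and -1.11), and KDM6B, an H3K27 demethylase, was at 7.4001 FPKM with scramble shRNA, 25.7 with the knockdown, 8.602 with vehicle and 13.2 with GSK126.

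Of the 67 genes lower with both, 12 stayed with the controls exchanged. C1orf112 was at 7.44 FPKM with scramble shRNA, 2.003 with the knockdown, 289.9 with vehicle and 5.58 with GSK126. Its vehicle value alone was high, and its difference of responses changed from 3.98 to -1.13 with a single control. HIST1H4C, a replication-dependent histone gene, had ratios of -2.21 for the knockdown and -1.57 for GSK126, and MITF, a transcription factor of the MiT family, of -1.46 for the knockdown and -1.61 for GSK126.

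Large housekeeping complexes showed small shifts of nearly all members. All 31 proteasome subunit genes had a knockdown ratio above their GSK126 ratio, beside 6804 of all 12679 genes. The proteasome medians were 0.44 and -0.26, with a median difference of 0.66. PSMB6, a catalytic subunit, was at 153 FPKM with scramble shRNA, 233 with the knockdown, 212 with vehicle and 148 with GSK126. All 32 ribosomal protein genes were shifted likewise (0.26 and -0.28, difference 0.52), as were 27 of 29 nuclear-encoded respiratory chain genes (0.23 and -0.26, difference 0.51). None of the ribosomal and respiratory genes passed 2-fold in either response. Rescaling to equal sums left 0.42, 0.28 and 0.26, and a single control left 0.45, 0.15 and 0.13. RPS19 was at 698 FPKM with scramble shRNA, 962 with the knockdown, 1056 with vehicle and 812 with GSK126, which puts the knockdown between vehicle and GSK126. Of 20 hypoxia and glycolysis genes, 10 were 2-fold or more lower with the knockdown and 2 with GSK126 (medians -0.94 and -0.65). The shares of all genes were 5.08% and 0.82%. The difference reached 2-fold in 1 of the 20, beside 6.55% of all genes. That was PDK1, a kinase that restrains mitochondrial pyruvate use, at 23.1 FPKM with scramble shRNA, 6.89 with the knockdown, 14.4 with vehicle and 10.7 with GSK126. Its difference of -1.22 was -0.57 with a single control, under 2-fold. Of 27 lysosomal genes, 2 were 2-fold or more higher in each response (medians 0.51 and 0.29), beside 1.89% and 0.868% of all genes. The lysosomal median difference of 0.16 became -0.08 after rescaling.

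**Figure D4:**
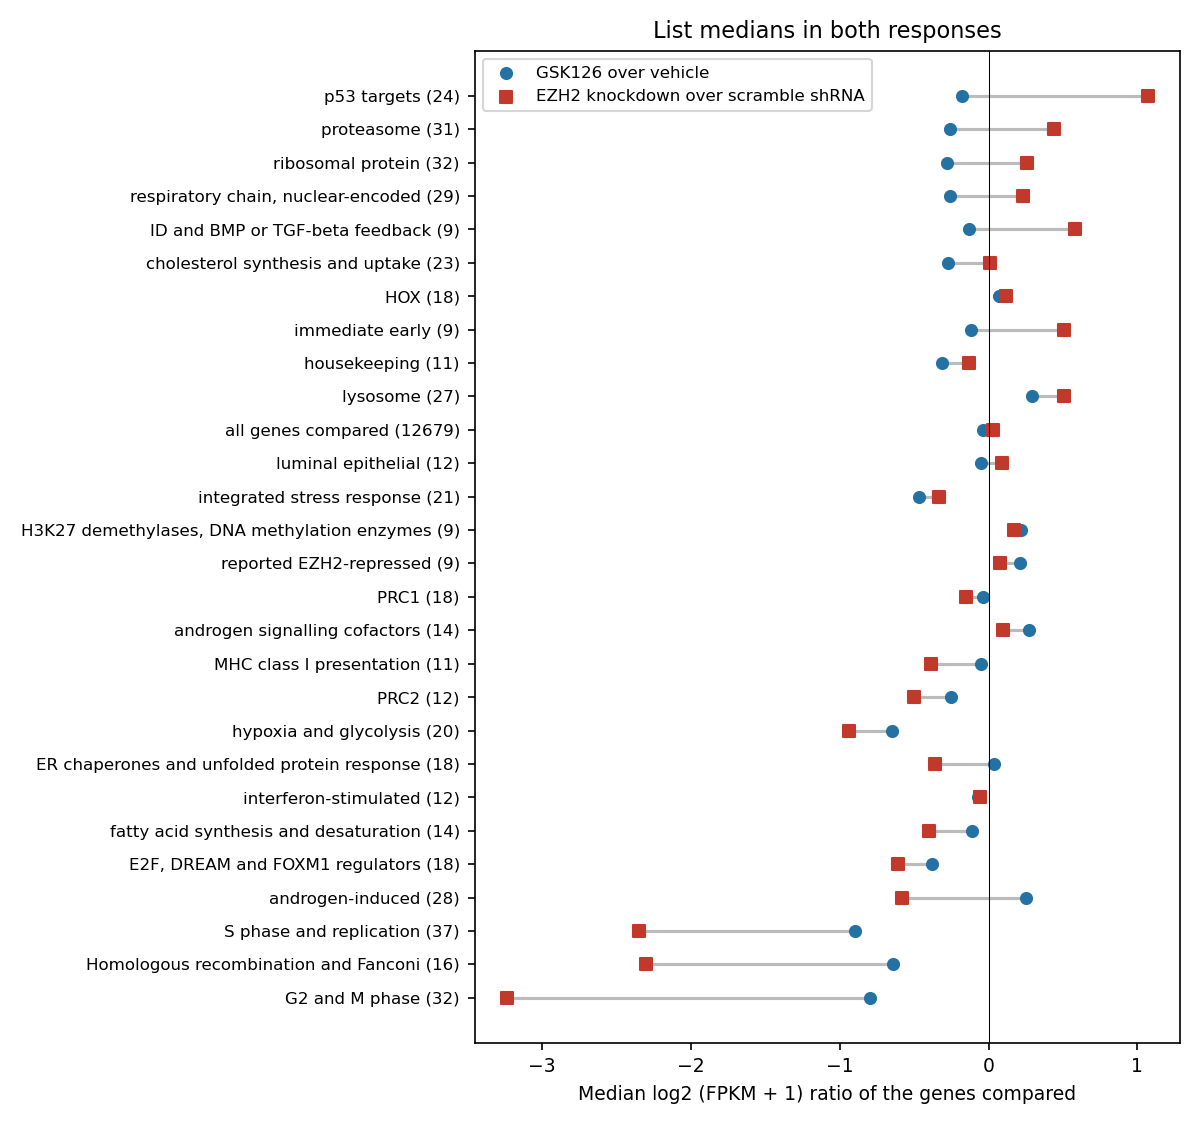
Median log2 (FPKM + 1) ratio of the genes compared in each list, with the number of genes in brackets, for GSK126 over vehicle (circles) and the EZH2 knockdown over scramble shRNA (squares); a grey line joins the 2 medians of a list. The squares lie left of the circles for the proliferation and androgen-induced lists and right of them for p53 targets, proteasome and ribosomal protein genes.

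In the remaining lists 2-fold differences are set beside 6.55% of all genes. Integrated stress response genes had medians of -0.33 and -0.47 and 0 of 21 differences past 2-fold, with MTHFD2, a mitochondrial folate enzyme, at -1.44 and -0.6. Fatty acid genes had 4 of 14, cholesterol genes 2 of 23, MHC class I genes 1 of 11, interferon-stimulated genes 1 of 12, luminal epithelial genes 2 of 12 and immediate early genes 2 of 9. JUNB, an AP-1 factor, was at 20.5 FPKM with scramble shRNA, 42.5 with the knockdown, 21.9 with vehicle and 20.03 with GSK126. No mesenchymal gene of the 4 compared passed 2-fold in either response, and VIM, vimentin, had ratios of 0.59 for the knockdown and 0.3 for GSK126. Among metallothioneins, MT1X had a difference of 1.22, which became -0.05 with a single control.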

How the data were processed

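The authors deposited 1 table of FPKM per gene. Alignment with TopHat2 and quantification with Cuffdiff on hg19 are named in the submitters' processing notes; versions, annotation and filters were not given in the sources used here. This table has no read totals, so depth is unknown and no counting interval is given. It has 5 columns for 6 labelled libraries, and whether the knockdown column is a mean, a pool or 1 of the 2 hairpins was not given in the sources used here. FPKM sums were between 661933 and 796603. Lines with names turned into dates (27) and short non-coding RNA genes (1717) were left out, as were 81 genes at 1 FPKM or more with a 0 in some column. Ratios used log2(FPKM + 1) in Python 3.11.15 with pandas 2.3.3. The class code was run on simulated large changes with little noise, which checks the code and not the classes of these data. Named are EZH2, EED, SUZ12 and EZH1, up to 8 genes per class and direction at 5 FPKM or more with a known symbol, and up to 4 per list (35 lists, 641 genes). Other names were chosen after their values were seen. Some genes that this rule names are not reported here. Members, lists and limits were chosen with earlier results of these data known. Promoters came from RefSeq by symbol (GRCh38.p14, the first listed start), 9641 of 12679 genes matching. Other pseudocounts, filters, scalings, controls and limits were tried. With no replicates, p-values cannot be given, and where nothing says that libraries came from separate cultures the differences may be technical.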

Additional observations from a re-analysis of the deposited data

How the results depend on the processing

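No paired analysis was possible because each condition has 1 value. A pseudocount of 0.1 FPKM moved all 10 counts: differences higher and lower became 428 and 1049, knockdown only 244 and 443, GSK126 only 125 and 46, opposite 57 and 108, and same direction 79 and 118. Without the 1 FPKM filter as well, these were 724 and 1677, 360 and 585, 292 and 109, 126 and 266, and 112 and 141, in which low genes enter by construction. At 5 FPKM, GSK126 only was 21 and 15 and opposite lower was 20. Rescaling to equal sums gave 1079 differences lower, 466 knockdown only lower, 119 GSK126 only higher, 10 and 98 opposite, and 51 and 23 in the same direction. Vehicle as the control of both gave 90 differences higher, 10 GSK126 only lower and 5 opposite higher. Scramble shRNA for both gave 90 differences higher, 415 knockdown only lower, 5 GSK126 only lower, 2 opposite higher, and 51 and 33 in the same direction. A 3-fold limit left 18 and 55 knockdown only, 11 and 4 GSK126 only, and 5 and 1 in the same direction. A limit of 0.25 for a gene that does not move left 90 and 132 knockdown only and 26 and 12 GSK126 only. Keeping genes at 0 or short RNAs moved none of the 10 counts by over 1.5 times. The neuroendocrine median difference changed from 0.92 to -0.33 at 5 FPKM and with 0.1 FPKM and no filter. At 5 FPKM SYT4 alone of that list remained, so -0.33 is there the difference of 1 gene. With a single control TUBA1A changed to -0.05, C1orf112 to -1.13 and MT1X to -0.05. Beyond what each setting fixes by construction, the cause was not tested.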

Other observations

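Histone genes appeared on both sides of the comparison, named here after their values were seen. HIST1H2BC was at 10.3 FPKM with scramble shRNA, 44.9 with the knockdown, 12.1 with vehicle and 15.1 with GSK126. HIST1H2BD was at 25.2 FPKM with scramble shRNA, 74.3 with the knockdown, 31.7 with vehicle and 42.95 with GSK126. HIST1H2BK had ratios of 1.17 for the knockdown and 0.06 for GSK126, and HIST1H2AC of 1.24 for the knockdown and 0.03 for GSK126. All 4 were higher with the knockdown only, in polyadenylated RNA, while HIST1H4C was lower with both treatments (-2.21 and -1.57). Over vehicle the 4 knockdown ratios were 1.81, 1.21, 0.88 and 0.73.

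Among further genes of the knockdown-only class, ODC1, the first enzyme of polyamine synthesis, was at 958 FPKM with scramble shRNA, 276 with the knockdown, 1274 with vehicle and 1154 with GSK126. LPL, lipoprotein lipase, had ratios of -1.22 for the knockdown and 0.44 for GSK126. MSH6, a mismatch repair gene, had ratios of -1.2 for the knockdown and -0.45 for GSK126. MALAT1, a nuclear long non-coding RNA, was at 158 FPKM with scramble shRNA, 318 with the knockdown, 201 with vehicle and 184 with GSK126, and SChLAP1, a prostate cancer long non-coding RNA, at 3.27 FPKM with scramble shRNA, 8.88 with the knockdown, 2.67 with vehicle and 3.45 with GSK126. HIF1A was in the opposite class, at 24.1 FPKM with scramble shRNA, 14.4 with the knockdown, 18.9 with vehicle and 32.3 with GSK126, with its ratios at -0.37 and 0.41 once the controls were exchanged.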
